A study of Crinum x powellii with 21 samples.

Results

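Callus of Crinum x powellii 'Album' grown in light with 4 mg/L of 2,4-D was compared with callus grown in light with 2 mg/L. The 6 libraries, 3 per concentration, were chosen by the treatment label out of 21 libraries in the series. Callus is the unorganised tissue that plant pieces form in culture, here on explants of paired bulb scales. All callus came from the variety 'Album' and grew on Murashige and Skoog medium with sucrose, yeast extract and the cytokinins BAP and kinetin, so that the groups shared these agents and differed in the concentration of 2,4-D. Each day the light-grown cultures had light for 14 h and darkness for 10 h. Callus kept in darkness for 24 h per day, with 4 mg/L (n = 3) or 2 mg/L (n = 2), and whole organs, namely leaves (n = 3), root (n = 2), bulb (n = 3) and basal plate (n = 2), served to describe the genes that changed. The labels do not say whether libraries came from separate bulbs or plates, so p-values measure the spread between these libraries, which may be technical. The titles of the 2 mg/L libraries carry a 3, and the treatment label was followed.

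2,4-D is a synthetic auxin. Auxin is sensed by nuclear receptors that mark Aux/IAA repressor proteins for degradation, which frees the transcription factors they hold back. In tissue culture, auxin together with cytokinin keeps cells dividing as callus, and auxin is also known for starting roots. Light turns on the genes of chloroplasts and leaf growth. The bulb of an amaryllid is a store made of leaf bases, and the basal plate is the short stem that carries them and the roots. The features are assembled transcripts with assembler names, which the files do not pair with gene names, functions or sequences. Gene families, and the identity of the tissues by marker genes, were therefore not analysed here. The genes are described by where in the plant they were expressed.

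Estimated counts per library added up to between 49682004 and 58704905 at 4 mg/L in light, and to between 26403881 and 59071345 at 2 mg/L in light. Over all 21 libraries the totals ran from 26403881 to 67502918. RNA of callus came from column kits and RNA of organs from CTAB extraction, so a level in callus and a level in an organ differ in method as well as in tissue. Basal plate replicate 2 stood apart from the other organ libraries, with 57923 genes at a CPM (counts scaled to library size) of 1 or more, against 38057 in basal plate replicate 1. For the comparison in light, the leading organ, list calls, list shares and organ profiles are given with and without it. Values in darkness, for the difference between light and darkness, for abundant genes and for other scalings or filters rest on both basal plate libraries. In bulk tissue, fewer cells of a type and less RNA per cell cannot be told apart.

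Doubling the concentration in light came with a broad change. Of 121349 genes tested, 26356 differed between 4 and 2 mg/L, which is 21.7% of those tested. A gene is termed called where edgeR's quasi-likelihood test gave a false discovery rate (FDR) under 0.05. At 4 mg/L, 13490 genes were higher (11.1%) and 12866 were lower (10.6%). The higher genes had a median log2 fold change of 1.85 and the lower genes one of -1.46, while the median over all genes tested was 0.05. Among them, 3126 higher and 1933 lower genes changed 8-fold or more, and 930 and 592 changed 32-fold or more. The 3 libraries of one concentration did not overlap with the 3 of the other for 25191 called genes (95.6%), against 36.0% of all genes tested. The called genes were chosen on these same libraries, so this difference follows from the choice and carries no test. The 36.0% includes the called genes.

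The balance of both directions depended on scaling. With TMM, a scaling that assumes most genes alike, 51.2% of calls were higher at 4 mg/L. By library totals alone, 63.2% were higher and the median of all genes moved to 0.22 on the log2 scale. Leaving out 1 of the 6 light-grown libraries gave between 18695 and 23427 called genes.

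With TMM scaling, falls outnumbered rises among abundant genes. Among the 1935 genes with a mean of at least 100 CPM over the 11 callus libraries, 455 were lower (23.5%) and 275 were higher (14.2%) at 4 mg/L. Between 10 and 100 CPM, 3049 were lower and 1772 higher, of 13202 tested. Among the 83859 genes under 1 CPM the order turned, with 7567 higher and 5382 lower. Genes called higher had a median log2 fold change of 2.35 in that class and 1.20 from 100 CPM upwards.

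The called genes took a large part of the RNA. Genes called higher held 20.2%, 21.9% and 21.4% of all counts in replicates A, B and C at 4 mg/L in light, and 7.75%, 7.87% and 7.30% in those at 2 mg/L in light. Genes called lower held 16.4%, 15.0% and 15.8% at 4 mg/L, and 34.5%, 32.8% and 34.4% at 2 mg/L. These light-grown values follow from how the genes were chosen and carry no test. The other libraries were not used in that contrast. In dark-grown callus the genes called higher held between 15.4% and 17.0% of the counts at both concentrations, nearer to light-grown callus at 4 mg/L than at 2 mg/L. In organs they held between 6.18% and 9.30%, the range in which the light-grown libraries at 2 mg/L lay. The genes called lower held between 15.9% and 17.8% in dark-grown callus. In organs they held between 20.5% and 28.7%, above every library of light-grown callus at 4 mg/L and of dark-grown callus, and below light-grown callus at 2 mg/L.

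**Figure D1:**
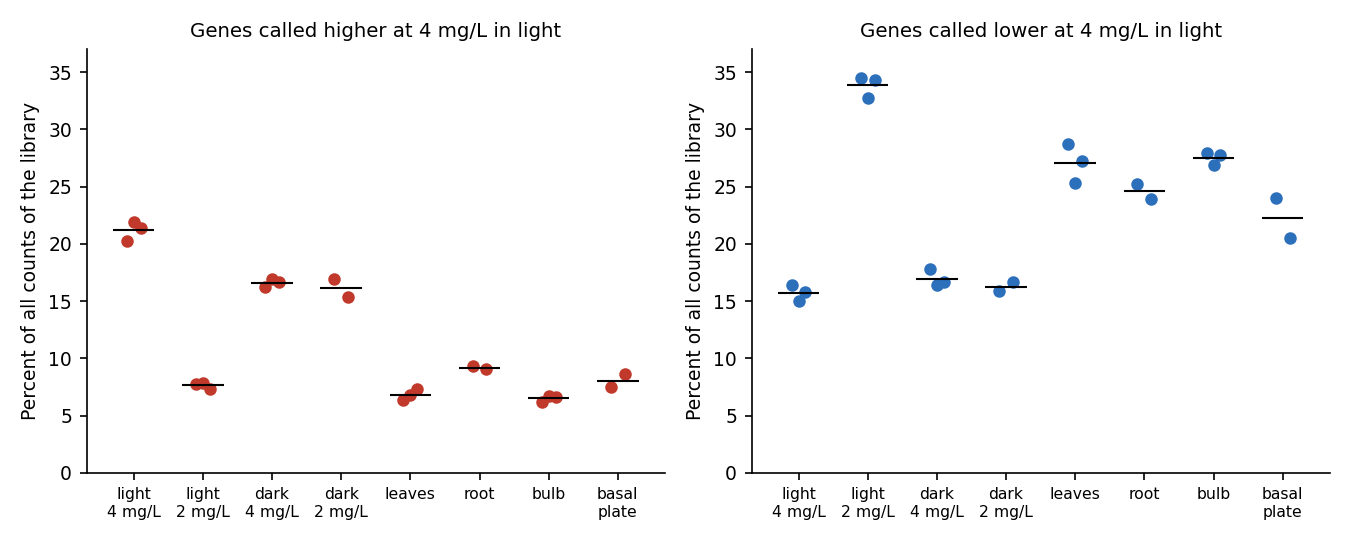
Percent of all counts of each library held by the genes called higher (left) and lower (right) at 4 mg/L in light, by group on the x axis. Points are libraries and lines are group means. Light-grown callus at 2 mg/L lay with the organs on the left (7.30% to 7.87%), and above all other groups on the right.

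Taken gene by gene, the dark-grown level was nearer to the light-grown level at 4 mg/L than to that at 2 mg/L for 10264 of the 12866 genes called lower (79.8%). The same held for 9295 of the 13490 genes called higher (68.9%) and for 61.9% of all genes tested. This is a description on log2(CPM + 0.1) of group means. The median level of the genes called lower was 1.00 CPM at 4 mg/L in light and 3.00 CPM at 2 mg/L in light. In darkness it was 1.01 CPM at 4 mg/L and 0.920 CPM at 2 mg/L.

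Few of these genes were called for the same step in concentration in darkness. In the dark-grown libraries, 610 genes were called between 4 and 2 mg/L (0.503% of 121349), of which 509 were higher (0.419%) and 101 lower (0.0832%). This count moved with single libraries. At 2 mg/L, leaving out replicate A gave 1458 and leaving out replicate C gave 114. It was 307 without replicate C at 4 mg/L. The library left alone at 2 mg/L was then taken to vary as other groups do. Of the genes called higher in light, 239 were also higher in darkness and 39 were lower. Called in darkness were thus 2.06% of the genes called higher in light, against 0.503% of all genes tested. The median log2 fold change of the genes called higher in light was 1.85 in light and -0.02 in darkness. Of the genes called lower in light, 24 were lower in darkness and 89 were higher, and the medians were -1.46 in light and 0.14 in darkness. The share called in darkness was 0.878% here. Across 15137 genes with a mean of at least 10 CPM in callus, the log2 fold changes had an SD of 1.07 in light and 0.40 in darkness. Pearson's r between both was 0.0312, a description across genes, which are not independent replicates.

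The difference between the effects in light and in darkness was tested as an interaction, which called 13981 genes (11.5%). The effect of 4 against 2 mg/L was higher in light for 6748 of them (5.56%) and lower in light for 7233 (5.96%). Among the genes called higher in light, 6138 had a higher effect in light, and among those called lower, 6427 had a lower one. The interaction uses the same light-grown libraries that chose these genes. Without replicate C of dark-grown callus at 2 mg/L it called 9274 genes. By library totals, 68.7% of the interaction calls were on the higher side, against 48.3% with TMM. With limma on log2(TPM + 1) and log2(TPM + 0.1), 59.2% and 60.3% were.

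**Figure D2:**
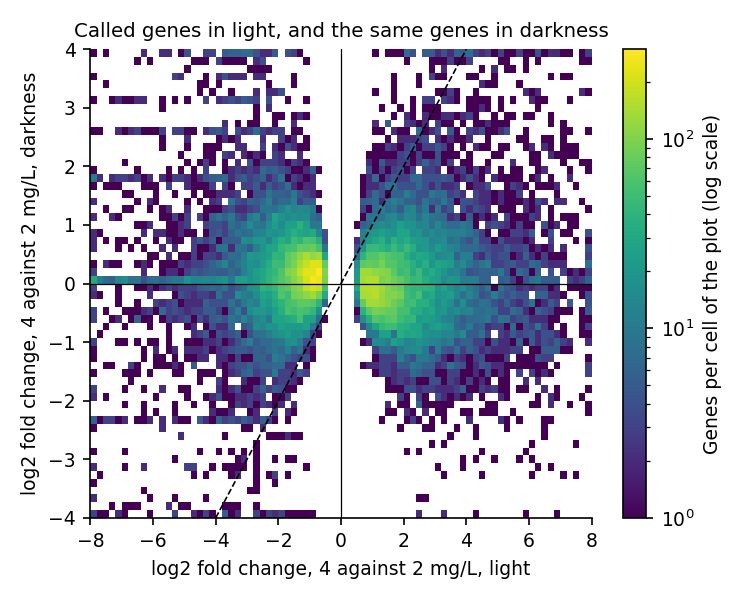
Log2 fold change of 4 against 2 mg/L in darkness (y axis, limited to 4 on either side) against that in light (x axis, limited to 8 on either side) for the 26356 genes called in light. Colour gives the number of genes, and the dashed line marks equal changes. Genes on both sides spread around 0 in darkness, with medians of -0.02 for those higher and 0.14 for those lower in light.

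Organ libraries were next used to ask where in the plant the changed genes were expressed. Genes called lower at 4 mg/L were for the most part also expressed in organs. With a mean of at least 1 CPM taken as expressed, 8357 of the 12866 genes called lower (65.0%) were expressed in at least 1 organ, and 5495 (42.7%) in all 4. Of the 13490 genes called higher, 5620 (41.7%) were expressed in at least 1 organ and 2671 (19.8%) in all 4. Among all genes tested these shares were 36.1% and 20.4%. Of the genes called higher, 7870 (58.3%) reached 1 CPM in no organ, against 63.9% of all genes tested. The reading turned with the level in callus. Among genes with a mean of at least 10 CPM there, 70.3% of those called higher, 92.9% of those called lower and 92.2% of all were expressed in all 4 organs, so the genes called higher departed from the background and those called lower lay near it. In the same class, 6.16% of 2047 called higher, 0.685% of 3504 called lower and 1.24% of 15137 tested were expressed in no organ.

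The organ of highest expression differed between both directions. Among expressed genes, root had the highest mean for 2587 of the genes called higher (46.0%), for 2051 of those called lower (24.5%) and for 30.7% of all genes tested. Bulb led for 959 of those called higher (17.1%), for 3060 of those called lower (36.6%) and for 28.0% of all. Leaves led for 905 of those called higher (16.1%), for 2444 of those called lower (29.2%) and for 24.8% of all. The basal plate led for 1169 of those called higher (20.8%), for 802 of those called lower (9.60%) and for 16.5% of all. Without basal plate replicate 2 the basal plate led for 16.9% of those called higher, 10.0% of those called lower and 16.6% of all, so the excess among genes called higher was not seen without this library.

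A gene was put on an organ's list where it exceeded its level in each of the other 3 organs (edgeR's quasi-likelihood test in the 10 organ libraries, FDR under 0.05). The organ libraries share none with the callus comparison, and no test of the overlap was made. The leaf list held 2011 genes, of which 1708 were tested in callus (1.41% of the genes tested there). At 4 mg/L in light, 173 of them were higher (10.1%) and 775 were lower (45.4%), and the median log2 fold change was -0.75. Of all genes tested, 11.1% were higher and 10.6% lower, so the share of leaf genes that rose was near the background. The bulb list held 1433 genes, of which 1142 were tested (0.941%). Of these, 112 were higher (9.81%) and 465 lower (40.7%), with a median of -0.44. Leaf and bulb genes thus fell more often than they rose. By library totals the same leaf list gave 200 higher and 688 lower and the bulb list 166 and 423, beside 16998 higher and 9881 lower of all genes. Among genes with a mean of at least 10 CPM in callus, 62.7% of leaf and 37.9% of bulb genes were lower with TMM. Of all genes in that class 23.1% were lower, so bulb genes lay nearer to the background there. Higher were 12.8% of leaf and 8.63% of bulb genes, against 13.5% of all.

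Root genes went the other way more often. The root list held 2308 genes, of which 2147 were tested (1.77%). Of these, 740 were higher at 4 mg/L in light (34.5%) and 381 were lower (17.7%), with a median log2 fold change of 0.30. Of all genes tested, 11.1% were higher and 10.6% lower. Among genes with a mean of at least 10 CPM in callus, 34.4% of the root list were higher and 18.1% lower, against 13.5% and 23.1% of all, so the share of falls lay above the background over all levels and below it in that class. Single callus libraries moved these values: without replicate C at 4 mg/L the root list gave 593 higher and 447 lower with a median of 0.13, and without replicate C at 2 mg/L it gave 802 and 288 with a median of 0.48. By library totals the median was 0.46. The basal plate list held 434 genes, of which 348 were tested (0.287%), 65 were higher (18.7%), 68 were lower (19.5%) and the median was 0.07. By library totals and with RLE factors, DESeq2 and salmon counts, leaf and bulb genes were still more often lower and root genes more often higher.

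The size of the lists depended on single organ libraries. Without leaves replicate 1 or 3 the leaf list gave 98 and 90 genes called higher, with 496 and 469 called lower. Without root replicate 1 the root list gave 313 higher and 167 lower, and without basal plate replicate 1 it gave 633 lower. The bulb list gave 57 higher and 242 lower without bulb replicate 1, 54 and 269 without bulb replicate 2, 47 and 213 without root replicate 1, and 185 and 853 without basal plate replicate 1. Without basal plate replicate 2 the leaf list gave 193 higher and 783 lower. The numbers were 796 and 475 for the root list and 159 and 596 for the bulb list. In each of these fits and without any other single organ library, leaf and bulb genes were called lower more often than higher, and root genes higher more often than lower. The basal plate list gave 535 higher and 320 lower without its replicate 1, and 49 and 79 without its replicate 2. Without any one of the other organ libraries it gave between 26 and 50 higher and between 34 and 60 lower. The direction for basal plate genes therefore differed between fits.

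**Figure D3:**
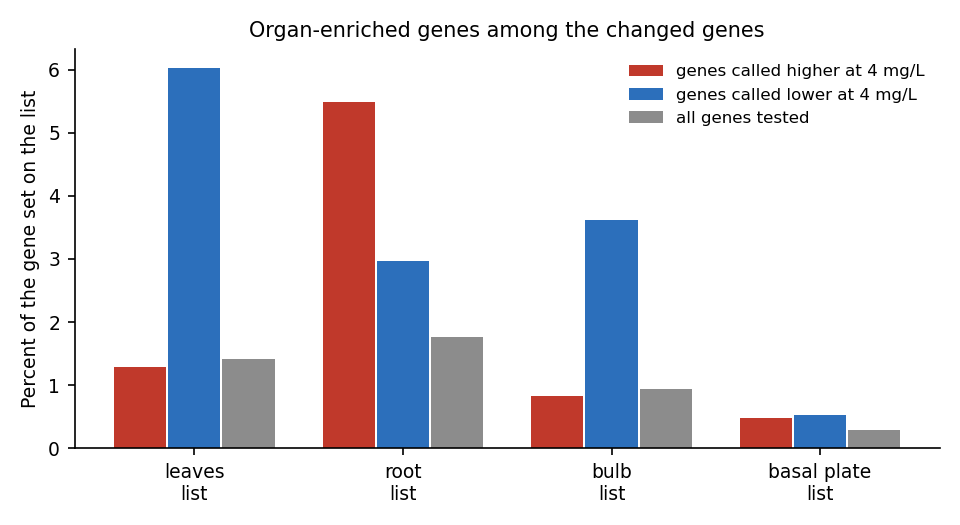
Percent of the genes called higher, of the genes called lower and of all genes tested (bars, y axis from 0) that are on the list of genes enriched in leaves, root, bulb or basal plate. Leaf genes made up 6.02% of the genes called lower against 1.41% of all genes tested, and root genes 5.49% of those called higher against 1.77%.

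Abundant genes kept the lean of root, leaf and bulb genes between both directions, against another background. Among genes with a mean of at least 10 CPM in callus, root genes made up 18.5% of those called higher, 5.68% of those called lower and 7.25% of all. Leaf genes made up 2.64% of those called higher, 7.53% of those called lower and 2.78% of all. Bulb genes made up 2.59%, 6.65% and 4.06% in the same order.

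The genes of largest change leaned in their organ profile, with root on the side of the rises and bulb and leaves on that of the falls. Each gene's mean log2(CPM + 0.5) in an organ was set against its mean over the 4 organs, for genes tested in both callus and organs. The 99 genes with a log2 fold change above 6 averaged 0.48 in root, -0.32 in leaves, -0.18 in bulb and 0.02 in the basal plate. The 198 genes with a fall of over 6 averaged -0.64 in root, 0.31 in leaves, 0.77 in bulb and -0.44 in the basal plate. Genes that changed by less than 0.5 in either direction lay within 0.04 of 0 in all 4 organs. Across 87890 genes, the log2 fold change in light had a Pearson r of 0.219 with that of root against bulb and of -0.170 with that of leaves against root. It was -0.184 with leaves against basal plate, -0.155 with bulb against basal plate, 0.0627 with root against basal plate and -0.0146 with leaves against bulb. Without basal plate replicate 2, the genes above 6 averaged 0.52 in root, -0.27 in leaves, -0.13 in bulb and -0.12 in the basal plate, whose sign turned, and the genes with a fall of over 6 averaged -0.64, 0.31, 0.76 and -0.43. On differences of mean log2(CPM + 0.5), r with leaves against basal plate was -0.125 without that library and -0.171 with it, r with bulb against basal plate was -0.125 and -0.174, and r with root against basal plate was 0.0886 and 0.0355. Leaving out this library here was chosen after seeing the data. These values describe genes, which are not independent replicates, and the organ contrasts share libraries with each other.

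**Figure D4:**
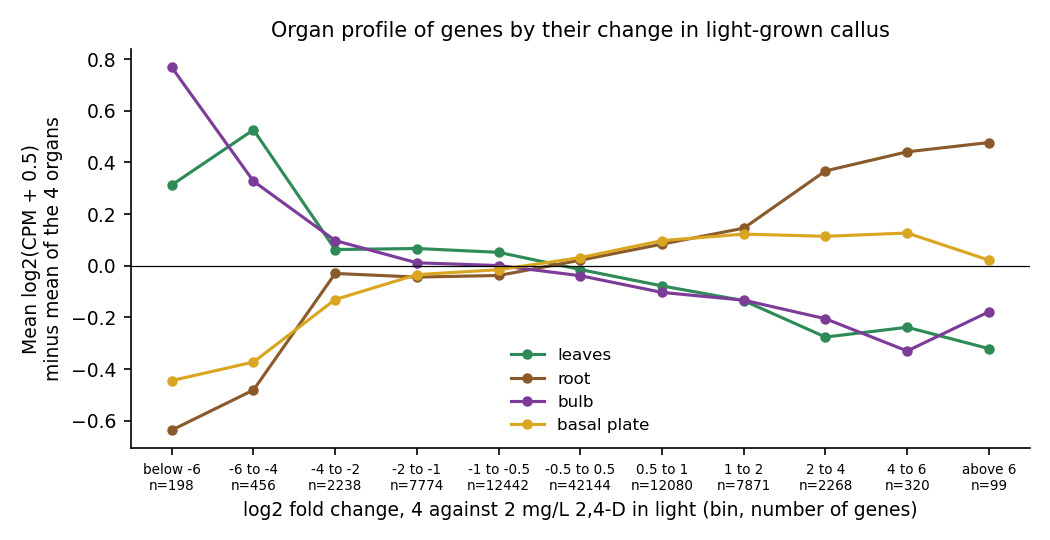
Mean organ level of genes relative to their mean over the 4 organs (y axis, log2 scale, pseudocount 0.5), by bins of the log2 fold change of 4 against 2 mg/L in light (x axis, with the number of genes per bin). Root runs from -0.64 in the bin of largest falls to 0.48 in that of largest rises, and bulb from 0.77 to -0.18.

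Summed over the leaf, bulb and root lists, the counts of all 3 libraries at 4 mg/L lay on one side of those at 2 mg/L. Leaf genes took 2.49%, 3.02% and 2.51% of all counts in replicates A, B and C at 4 mg/L, and 4.20%, 3.89% and 3.61% at 2 mg/L. Bulb genes took 3.75%, 3.95% and 3.89% at 4 mg/L, and 5.23%, 5.03% and 4.93% at 2 mg/L. Root genes took 12.2%, 12.2% and 14.4% at 4 mg/L, and 9.85%, 9.90% and 10.5% at 2 mg/L. For none of these 3 lists did the libraries of both concentrations overlap. The exact two-sided permutation test of 3 against 3 libraries gave p = 0.1 for each, the smallest value it can give, so it cannot pass 0.05. Basal plate genes took 0.243% ± 0.027 at 4 mg/L and 0.206% ± 0.014 at 2 mg/L (SD, n = 3 each), with overlapping libraries and an exact permutation p of 0.2. On TPM they took 0.254% ± 0.025 at 4 mg/L and 0.175% ± 0.011 at 2 mg/L, with an exact permutation p of 0.1. With the list made without basal plate replicate 2, basal plate genes took 0.507% ± 0.068 at 4 mg/L and 0.444% ± 0.039 at 2 mg/L, with an exact permutation p of 0.3. Leaf, bulb and root genes by such lists kept their direction without overlap. The adjusted p over the 4 lists was 0.133 for leaf, bulb and root genes and 0.2 for basal plate genes.

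A few genes weighed heavily in the leaf and basal plate lists. The 10 genes of the leaf list most abundant in callus held 54.6% of its counts at 4 mg/L and 28.1% at 2 mg/L in light. Without them, leaf genes took 1.20% ± 0.13 of all counts at 4 mg/L and 2.80% ± 0.25 at 2 mg/L (SD, n = 3 each). The basal plate list, treated the same way, took 0.117% ± 0.013 at 4 mg/L and 0.121% ± 0.009 at 2 mg/L, so that its order turned.

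Dark-grown callus held less of the root list than light-grown callus did. Root genes took between 6.81% and 6.85% of the counts at 4 mg/L in darkness and between 5.59% and 5.86% at 2 mg/L in darkness. Both ranges lay below all 6 light-grown libraries, and the 4 mg/L libraries again lay above those at 2 mg/L. That order in darkness was not particular to root genes. Basal plate genes, by the list from both basal plate libraries, took 0.323% to 0.341% at 4 mg/L and 0.257% to 0.315% at 2 mg/L. For leaf and bulb genes, the dark-grown libraries of both concentrations overlapped. In the test, 137 of 2147 root genes were higher at 4 mg/L in darkness (6.38%) and 0 were lower (edgeR, FDR under 0.05), against 0.419% and 0.0832% of all genes tested. DESeq2 called 195 higher and 0 lower, library totals gave 96 higher and 1 lower, and the count was 42 without replicate C at 2 mg/L and 68 without replicate C at 4 mg/L. Without replicate A at 2 mg/L, 179 were higher and 12 lower. These settings for the root list were chosen after seeing the data. The median log2 fold change of root genes in darkness was 0.32, and 0.15 by library totals. Leaf genes had 10 higher (0.585%) and 11 lower (0.644%) in darkness with a median of -0.09. Bulb genes had 21 higher (1.84%) and 3 lower (0.263%) with a median of 0.25. Without replicate A at 2 mg/L in darkness, leaf genes had 26 higher and 28 lower and bulb genes 62 and 8 (bulb median 0.46). Without replicate C at 2 mg/L, leaf genes had 1 higher and 3 lower and bulb genes 2 and 2 (bulb median 0.14). By library totals, leaf genes had 5 and 12 and bulb genes 9 and 3 (bulb median 0.09). Among genes with a mean of at least 10 CPM in callus, 9.56% of root, 0.950% of leaf and 1.63% of bulb genes were higher. Of all genes in that class, 1.69% were higher in darkness, so bulb genes lay near the background there. Lower in darkness were 0%, 0.713% and 0.326% in the same order, against 0.126% of all. In the interaction, 477 leaf genes (27.9%) and 365 bulb genes (31.96%) had a lower effect in light, against 5.96% of all genes tested. A higher effect in light was called for 124 leaf genes (7.26%) and 41 bulb genes (3.59%), near the 5.56% of all genes. For root genes the numbers were 344 higher (16.0%) and 400 lower (18.6%). In the class of at least 10 CPM in callus, 51.8% of leaf, 34.7% of bulb and 22.3% of root genes had a lower effect. Of all genes in that class 18.6% did, so root genes lay near the background there. A higher effect was called for 7.60%, 2.12% and 16.1% in the same order, against 6.73% of all.

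Single genes, picked for their change in these same light-grown libraries, are described library by library. By the naming rule, Crpow_TRINITY_DN2521_c0_g2 rose most. It had 125, 84.9 and 242 CPM in the libraries at 4 mg/L in light, and 0.396, 0.187 and 0.110 CPM in those at 2 mg/L in light. Every library at 4 mg/L lay far above every library at 2 mg/L, and the naming rule required that these groups not overlap. Dark-grown callus had 9.71, 14.1 and 12.2 CPM at 4 mg/L, and 4.58 and 62.9 CPM at 2 mg/L, so the dark-grown libraries lay between both light-grown groups. Leaves, root, bulb and basal plate replicate 1 had 0 counts and basal plate replicate 2 had 4. The gene was thus seen almost only in callus among these libraries. The log2 fold change was 9.25 ± 0.70 (SE) in light (edgeR, FDR = 4.44e-11) and -1.49 ± 0.50 (SE) in darkness (FDR = 0.291). Another gene of its assembly component, which shares sequence with it, had 147 to 304 CPM at 4 mg/L and 1.5 to 3.80 CPM at 2 mg/L in light (log2 fold change 6.31, FDR = 8.97e-14 in edgeR).

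The most abundant gene with at least a 4-fold rise was Crpow_TRINITY_DN2855_c0_g1, a member of the root list. It had 2537, 2754 and 4752 CPM at 4 mg/L in light, and 457, 658 and 487 CPM at 2 mg/L in light. In darkness it had 762, 607 and 662 CPM at 4 mg/L, and 379 and 486 CPM at 2 mg/L, again without overlap. Root had 182 and 69.7 CPM, bulb 6.82 to 9.57 CPM and leaves 0.646 to 1.42 CPM. Its level in root was thus below that in every callus library. The log2 fold change was 2.65 ± 0.23 (SE) in light (edgeR, FDR = 6.52e-10) and 0.65 ± 0.25 (SE) in darkness (FDR = 0.416).

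The largest fall was that of Crpow_TRINITY_DN1405_c2_g1, a member of the bulb list. It had 1 count in replicate A and 0 in replicates B and C at 4 mg/L in light, and 2035, 1583 and 2908 counts at 2 mg/L in light, which is 36.6, 59.4 and 64.2 CPM. All dark-grown libraries had 0 counts. Bulb had 80.6, 76.4 and 58.4 CPM, leaves 13.4, 10.5 and 6.08 CPM, the basal plate 9.37 and 0.983 CPM, and root 0 counts. Among the callus groups, light-grown callus at 2 mg/L was the one that expressed this gene, with libraries that overlap those of bulb. On scaled library sizes, the pooled 6526 counts at 2 mg/L against 1 at 4 mg/L are a ratio of 8349.6 of 2 over 4 mg/L. Its 95% counting interval runs from 1498 to 329843 and covers counting error only (FDR = 1.73e-15 in edgeR).

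The most abundant gene with at least a 4-fold fall was Crpow_TRINITY_DN300_c7_g1, which was on no organ list. It had 269, 290.3 and 273 CPM at 4 mg/L in light, and 3621, 3298 and 3776 CPM at 2 mg/L in light. In darkness it had 2.32, 1.95 and 2.52 CPM at 4 mg/L, and 3.71 and 6.93 CPM at 2 mg/L. Both light-grown groups thus lay well above both dark-grown groups, and within each light regime the libraries at 4 mg/L were the lower. Bulb had 573, 1042 and 767 CPM and leaves 157, 91.6 and 100.1 CPM, while root had 32.5 and 136 CPM and the basal plate 187 and 2.34 CPM. The log2 fold change was -3.68 ± 0.22 (SE) in light (edgeR, FDR = 3.29e-13) and -1.24 ± 0.23 (SE) in darkness (FDR = 0.0076).

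**Figure D5:**
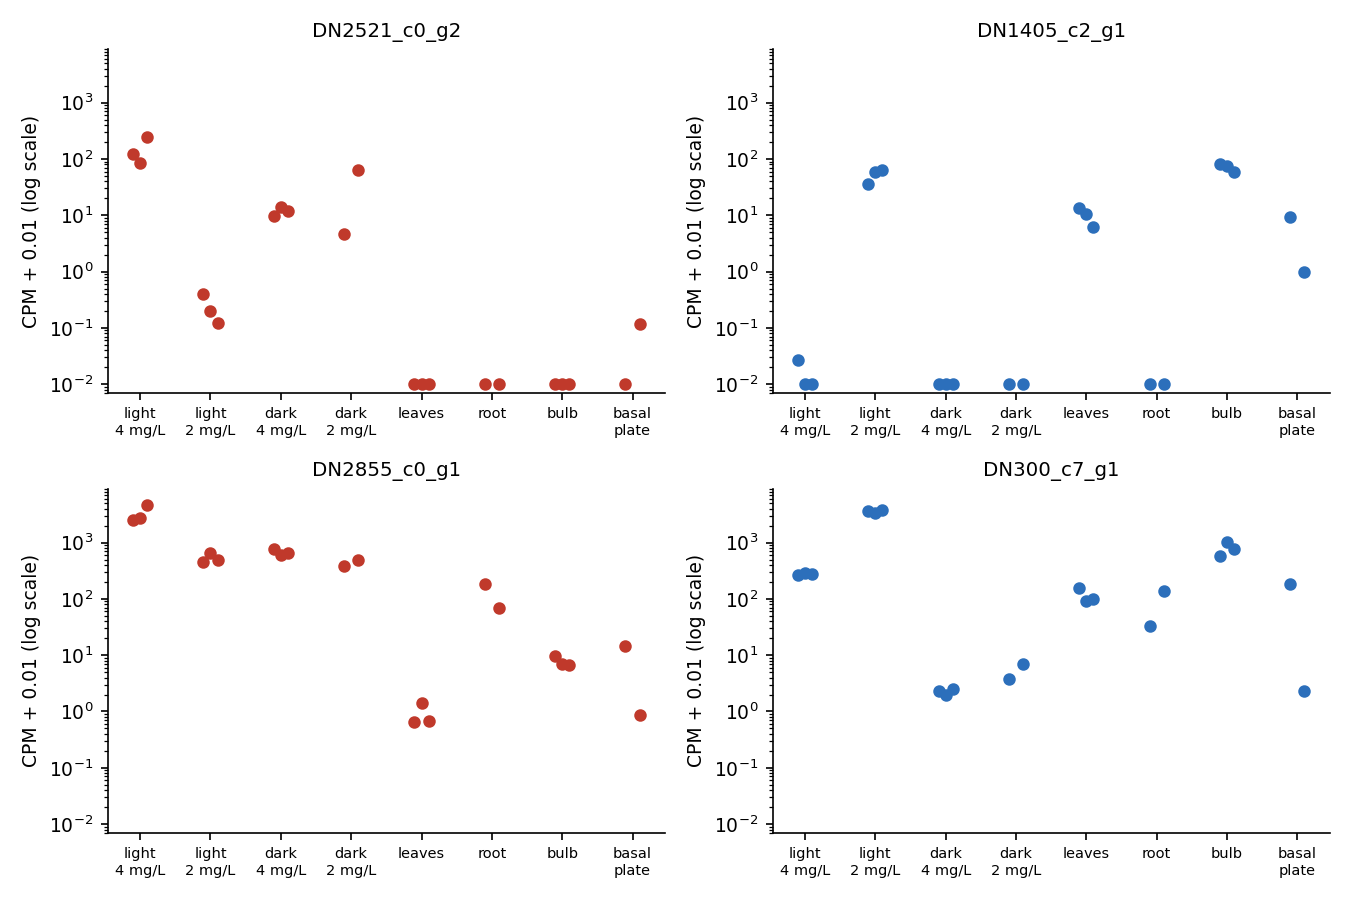
CPM + 0.01 (y axis, log scale) of the 4 named genes in each library, by group on the x axis. The genes on the left rose and those on the right fell at 4 mg/L in light. In all 4 the light-grown libraries at 4 and 2 mg/L do not overlap, as the naming rule required. DN1405_c2_g1 had 0 counts in every dark-grown library and in root.

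Trinity groups genes into components whose transcripts share sequence, so reads can pass between the genes of one component. Of the called genes, 73.8% were the sole tested gene of their component, against 75.3% of all genes tested. Among 1292 components with at least 2 called genes, 463 had genes that were all higher at 4 mg/L, 480 had genes that were all lower, and 349 (27.0%) had genes in both directions. Of these 349, the summed counts of the component were called for 164 and not called for 185. Summed over components, 23136 of 111231 were called (20.8%), 11835 higher and 11301 lower.

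Isoforms were tested in the same way. Of 206491 isoforms tested, 29569 were called (14.3%), 16200 higher and 13369 lower at 4 mg/L. Of the 21092 genes with an isoform called, 850 had isoforms called in both directions. Of those 850, 324 were called as a whole and 526 were tested and not called.

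Effective length was taken from the ratio of counts to TPM, relative to the library's median isoform. For genes with a mean of at least 10 CPM, its median was 1.14 for those called higher, 1.42 for those called lower and 1.34 for all tested. Genes called higher were thus the shorter in this class, while over all levels the medians were 0.742 for those called higher, 0.811 for those called lower and 0.740 for all tested. Isoforms per gene had a median of 4 in each set of the class of at least 10 CPM and of 2 in each set over all levels.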

How the data were processed

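Polyadenylated RNA of 21 libraries was sequenced. Per the submitters' processing notes, fastp 0.23.4, kallisto 0.46.1 and Salmon 1.4.0 were used. Which tool made the first set of tables, and its settings, are not given in the sources used here. For each isoform, the authors deposited estimated counts, which were summed per gene (dropping the isoform suffix) and rounded. The authors' deposited TPM per gene and isoform are scaled to the same sum in each library and were used for alternatives and lengths. Both deposited gene tables named as counts were left out, because 100% of their values were gene TPM rescaled by the library total, within 1% plus 0.02 counts.

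The test was edgeR's (4.0.16, in R 4.3.3) quasi-likelihood F test after TMM scaling and filterByExpr, with a Benjamini-Hochberg FDR under 0.05, with the 11 callus libraries in one fit and the 10 organ libraries in another. CPM values are on TMM-scaled library sizes. Named genes were called, reached 10 CPM in each library of the higher group, and had groups that did not overlap. In each direction, these were the one of largest fold change and the most abundant one with at least 4-fold change. The procedure was tested on simulated counts with few changed genes, where the share of false calls came out above the nominal FDR. Alternatives were RLE factors, library totals, other filters, DESeq2 1.42.0, limma 3.58.1 on log2 of TPM plus 1 or plus 0.1, salmon counts, isoforms, components, a replicate block and left-out libraries.

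By the rule that every same-letter correlation exceed 0.1, the replicate letters of the titles were taken to pair the light-grown libraries: deviations from the group means of libraries with the same letter correlated at 0.17 (A), 0.12 (B) and 0.38 (C). Light 4 mg/L A with light 2 mg/L B reached 0.16, above the pair B, so the pairing by letter is weak. The main fits and the permutation tests did not use the pairing, and only the replicate block did. The labels do not say what a letter stands for. The members, gene lists and tests were chosen with earlier results of these data known.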

Additional observations from a re-analysis of the deposited data

Results flagged for a closer look

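The effect of 4 against 2 mg/L differed between light and darkness, by the interaction test, for 13981 of 121349 genes (edgeR, FDR under 0.05). Among the named genes, the effect in light minus that in darkness was 10.74 on the log2 scale for Crpow_TRINITY_DN2521_c0_g2 (FDR = 7.03e-10 in edgeR). It was 2.00 for Crpow_TRINITY_DN2855_c0_g1 (FDR = 6.83e-05) and -2.44 for Crpow_TRINITY_DN300_c7_g1 (FDR = 2.68e-06). For Crpow_TRINITY_DN1405_c2_g1 the interaction had no usable estimate, and every dark-grown library had 0 counts.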

How the results depend on the processing

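Counts of genes called in light stayed within 1.5 times of 26356 under every alternative run, from 18695 to 32928, and without single libraries from 18695 to 27811. The numbers tested differed, so the share called varied more than the count. No filter gave 21595 of 579012, and at least 1 CPM in at least 2 libraries gave 19485 of 46210. Salmon counts gave 32928 of 164614 and isoforms 29569 of 206491, against 26356 of 121349 in the main fit. The replicate block, which pairs libraries by letter, gave 25085 calls in light, 665 in darkness and 13976 in the interaction, and moved no count of these by over 1.5 times. The 610 calls in darkness became 381 by library totals, 1398 with no filter, 335 with at least 1 CPM in at least 2 libraries, 90 and 87 with limma on log2(TPM + 1) and log2(TPM + 0.1), and 15 for isoforms. Leaving out single libraries gave 114 to 1458 in darkness, 9274 to 14194 in the interaction and 16475 to 20513 for components in light. The causes were not tested.

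For library totals, RLE, the 1 CPM filter, DESeq2 and salmon counts, the organ lists here were made anew under the same setting. List and callus test thus changed together. The share of the leaf list called higher was 12.1% by library totals, 12.2% with the 1 CPM filter, 8.18% with DESeq2 and 12.8% at 10 CPM or more in callus, a class chosen after seeing the data. Called lower, it was 51.0% with that filter, 37.2% with DESeq2 and 62.7% at 10 CPM or more. The root list called higher was 31.2% with RLE, 40.9% by totals, 38.2% with the filter and 28.2% with DESeq2. The bulb list called higher was 16.5% by totals, 7.75% with DESeq2 and 11.8% for lists of at least 2-fold, and called lower 37.5% with the filter and 35.4% with DESeq2. The basal plate list called higher was 23.4% by totals, 26.5% with the filter and 31.1% at 10 CPM or more, and called lower 12.9% with salmon counts and 26.7% at 10 CPM or more. With the main lists kept, DESeq2 called 44.4% of leaf genes lower and 31.1% of root genes higher. Salmon counts then gave 21.7% of basal plate genes lower.

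Without single organ libraries, the leaf list ran from 8.71% to 11.9% called higher and from 41.0% to 55.0% called lower, and the root list from 30.5% to 38.3% and from 17.5% to 20.4%. The bulb list ran from 7.92% to 12.2% called higher and from 35.4% to 55.5% called lower, and the basal plate list from 16.4% to 23.5% and from 11.7% to 28.0%.

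At 0.5 and 2 CPM, 54.5% and 31.3% of the genes called higher were expressed in at least 1 organ and 26.7% and 14.3% in all 4. Of those called lower, 76.2% and 54.5% were expressed in at least 1 organ and 50.3% and 35.5% in all 4. Without single basal plate libraries these shares at 1 CPM were 40.5% to 43.6% and 19.5% to 19.6% for genes called higher, and 64.7% to 65.6% and 41.4% to 42.8% for genes called lower. The difference of 4 minus 2 mg/L in the share of counts held by basal plate genes turned to -0.00365 percentage points without its 10 most abundant genes, an alternative chosen after seeing the data. The libraries of both concentrations overlapped there. The 4 named genes kept their direction and their side of the threshold in all 40 recomputed values.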
